A study of Mus musculus with 4 samples.

Results

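The genes described here encode the proteins of the mitochondrial ribosome, read from mRNA-seq of mouse embryonic stem cells (mESCs). A gene was taken as a member when its Ensembl identifier carried a protein-coding mouse symbol beginning with Mrpl (large subunit) or Mrps (small subunit) and a number, with symbols marked as pseudogenes left out. This rule, which used no expression value, gave 76 of the 37310 genes listed, 47 of the large and 29 of the small subunit. The members lie on 17 chromosomes, with at most 10 on any of them. The wild-type group is 2 libraries of JM8 mESCs, a line derived from C57BL6/N mice. The Bmal1-/- group is 2 libraries from JM8 cells in which CRISPR/Cas9 had disrupted both copies of Bmal1, a core transcription factor of the circadian clock. All 4 cultures grew without feeder cells in serum-free 2i medium with LIF, in which PD0325901 at 1 µM blocks Mek and CHIR99021 at 3 µM blocks Gsk3. The Bmal1-/- cells are 1 clone, so that the loss of Bmal1 and any other property of that clone cannot be told apart.

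Mitochondria keep a small genome of their own, and the mitochondrial ribosome translates the few proteins it encodes, all of them parts of the respiratory chain and the ATP synthase. The ribosomal RNAs come from that genome, while every protein of the ribosome is encoded in the nucleus, made in the cytosol and imported. Some of these proteins descend from those of the bacterial ribosome and others are found only in mitochondria. mESCs in 2i + LIF rely on both glycolysis and mitochondrial respiration.

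The promoters of 5 members are shown as examples, each picked for the reason given next. Mrps21 and Mrpl52 had the lowest log2 fold changes of their subunits, Mrps12 is the small subunit member facing the decoding site, Mrps24 was the member that rose, and the promoter of Mrps18c holds an E-box, the sequence that Bmal1 and its partner Clock are known to bind. Each is the RefSeq sequence (GRCm38.p6) from 250 bases before to 50 bases after the start of the gene, 5′ to 3′ along the gene. Capitals mark the E-box (CACGTG) and the letters of the motifs of NRF1 (GCGCA and GCGC with 1 base of any kind between them), YY1 (AAGATGGC) and ETS factors (CCGGAAG), on either strand.
Mrps21, chr3:95871465-95871764, minus strand: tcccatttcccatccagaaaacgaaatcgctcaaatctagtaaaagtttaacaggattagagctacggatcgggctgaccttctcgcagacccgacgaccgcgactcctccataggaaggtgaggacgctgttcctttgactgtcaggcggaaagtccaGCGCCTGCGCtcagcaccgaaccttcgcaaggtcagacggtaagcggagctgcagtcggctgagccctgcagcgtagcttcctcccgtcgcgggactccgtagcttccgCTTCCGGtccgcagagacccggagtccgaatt
Mrpl52, chr14:54426659-54426958, plus strand: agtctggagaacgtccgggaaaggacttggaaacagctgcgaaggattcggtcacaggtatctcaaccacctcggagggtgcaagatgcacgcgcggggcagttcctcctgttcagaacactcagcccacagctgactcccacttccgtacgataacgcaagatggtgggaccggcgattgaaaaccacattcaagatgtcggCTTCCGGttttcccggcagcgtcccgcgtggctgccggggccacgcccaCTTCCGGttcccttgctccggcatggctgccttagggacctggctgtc
Mrps12, chr7:28741772-28742071, minus strand: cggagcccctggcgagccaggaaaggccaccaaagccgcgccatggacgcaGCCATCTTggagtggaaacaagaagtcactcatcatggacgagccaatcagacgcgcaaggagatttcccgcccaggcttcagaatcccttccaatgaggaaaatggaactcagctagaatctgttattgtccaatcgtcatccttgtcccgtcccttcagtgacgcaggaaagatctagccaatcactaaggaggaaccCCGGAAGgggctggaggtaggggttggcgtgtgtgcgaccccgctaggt
Mrps18c, chr5:100798509-100798808, plus strand: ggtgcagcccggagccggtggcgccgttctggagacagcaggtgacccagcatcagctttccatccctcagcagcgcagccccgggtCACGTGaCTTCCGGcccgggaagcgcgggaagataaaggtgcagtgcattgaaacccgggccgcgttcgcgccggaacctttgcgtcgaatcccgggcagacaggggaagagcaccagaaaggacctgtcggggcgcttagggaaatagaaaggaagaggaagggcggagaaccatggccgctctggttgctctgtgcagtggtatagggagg
Mrps24, chr11:5707652-5707951, minus strand: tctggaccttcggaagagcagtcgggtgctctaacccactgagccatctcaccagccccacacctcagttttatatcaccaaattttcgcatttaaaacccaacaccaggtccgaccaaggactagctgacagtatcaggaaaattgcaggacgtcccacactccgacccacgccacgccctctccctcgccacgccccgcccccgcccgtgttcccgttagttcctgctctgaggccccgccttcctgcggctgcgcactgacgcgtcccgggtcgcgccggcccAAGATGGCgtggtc

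Promoters were found for 67 of the 76 members, 73 sequences in all. No motif among the 4 overlapped another in the sequences shown. The E-box was present in 9.59% of the members' promoters, against 7.15% of all 32851 promoters and 9.95% of the 12001 promoters of genes tested. Its 5 carriers were Mrpl2, Mrpl20, Mrpl36, Mrpl37 and Mrps18c. Among members with a promoter sequence, the median log2 fold change was −0.28 in these 5 and −0.27 in the 61 tested without an E-box. The other motifs, those of factors known to drive nuclear genes for mitochondrial proteins, gave higher shares. ETS letters stood in 32.9% of the members' promoters and 16.3% of those of genes tested, NRF1 letters in 16.4% and 9.54%, and YY1 letters in 16.4% and 4.07%. The median log2 fold change was −0.33 in the 23 members tested with ETS letters and −0.25 in the 43 without. For NRF1 the medians were −0.30 in 12 members with the letters and −0.26 in 54 without, and for YY1 −0.27 in 12 and −0.28 in 54. A match shows only that the letters occur in the window.

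The libraries held 21504265 to 23329034 reads on genes. Their values are read counts divided by a factor per library (trimmed mean of M values, TMM) and carry no correction for gene length. A gene was tested when its mean value over the 4 libraries was at least 10, and was called when limma gave a Benjamini-Hochberg adjusted p below 0.05, with no minimum fold change. Arntl, the symbol under which Bmal1 is listed, had values of 678 and 733 in wild-type cultures against 556 and 590 in those labelled Bmal1-/- (−0.30 on the log2 scale, SE 0.07, adjusted p = 0.0011). Reads of this gene were thus present in all 4 libraries. The study reports frameshift mutations in both copies, and in its Bmal1-/- cells it detected neither Bmal1 mRNA by RT-qPCR nor Bmal1 protein by Western blot. Markers of naive mESCs were all present, with summed values of 150752 and 153282 in wild-type and 157052 and 158544 in Bmal1-/- libraries. Within this sum, Nanog (22379 and 22465 against 26312 and 27127), Tcfcp2l1, Tbx3 and Klf4 were higher in both Bmal1-/- libraries. Pou5f1 (28677 and 29164 against 26483 and 26504), Esrrb, Zfp42 and Dppa5a were lower in both. Of 7 fibroblast markers, 5 were at or below 3 reads in every library, and the list summed to 69.5 to 108 across libraries. Primitive endoderm markers summed to 171 to 195, but moved apart: Sox7 was at 46.4 and 52.1 in wild-type against 5.64 and 12.4 in Bmal1-/- libraries and Gata6 at 6.32 and 6.37 against 0 and 2.86 (3 reads), while Sox17 was at 10.5 and 14.9 against 32.9 and 30.5 and Gata4 at 69.5 and 85.0 against 120.2 and 107. Pdgfra (22.3 to 32.7) and Dab2 (5.27 to 13.2) were the others of this list. Neural markers (2 of 5 at or below 3 reads in every library) summed to 3753 and 3489 against 2101 and 1968, mostly from Tubb3 and Nes. Tubb3 (2785 and 2512 against 1192 and 1088) and Pax6 (45.3 and 24.4 against 9.39 and 9.54) were lower. Nes changed little (921 and 950 against 897 and 870). Trophoblast markers (1 of 5 at or below 3 reads in every library) summed to 1766 and 1778 against 789 and 727, mostly from Tcfap2c and Eomes. Tcfap2c, Eomes and Cdx2 were lower in both Bmal1-/- libraries, while Hand1, at few reads, was at 2.11 and 5.31 against 8.45 and 9.54. The part of these genes in the results below was not tested.

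Mitochondrial ribosomal protein mRNAs were lower in Bmal1-/- mESCs in both subunits. Of the large subunit genes, 44 of the 46 tested fell and 0 rose, and of the small subunit genes 26 of 29 fell and 1 rose. Over all 14510 genes tested 52.6% were called, 28.6% lower and 24.0% higher. The falls were small: the median log2 fold change was −0.28 for the large subunit (quartiles −0.38 and −0.22) and −0.30 for the small subunit (quartiles −0.36 and −0.20), against −0.03 over all genes tested (quartiles −0.23 and 0.26). Among genes with under 2000 exon bases and a mean value of at least 500, the median was −0.31 for the 36 members and −0.25 for protein-coding genes outside the family. In that class 33 of the 36 members and 77.2% of the 1015 other genes were called lower, a share far above the 28.6% of all genes. In these bulk samples, fewer cells of a kind and less of an mRNA per cell cannot be told apart. In the median, a large subunit gene was at 82.1% of its wild-type value and a small subunit gene at 81.3%. None of the members passed a 2-fold threshold, which 7.21% of all genes tested did. Both Bmal1-/- libraries lay below both wild-type libraries for 73 of the 75 members tested, which held for 41.4% of all genes tested. The reverse held for 1 member (Mrps24) and 34.6% of all genes.

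Together the members took 0.425% and 0.443% of the reads on genes in wild-type and 0.373% and 0.375% in Bmal1-/- libraries. The 2 groups did not overlap, and the mean Bmal1-/- share was 86.2% of the wild-type share (85.5% for the large and 87.3% for the small subunit). An exact permutation test on 2 libraries against 2 cannot give a two-sided p below 0.333. The 2 wild-type libraries differed more from each other than the 2 Bmal1-/- libraries did. Values were higher in wild-type library 2 than in wild-type library 1 for 36 of 46 large subunit and 22 of 29 small subunit members, and in Bmal1-/- library 2 than in library 1 for 24 of 46 and 15 of 29.

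**Figure D1:**
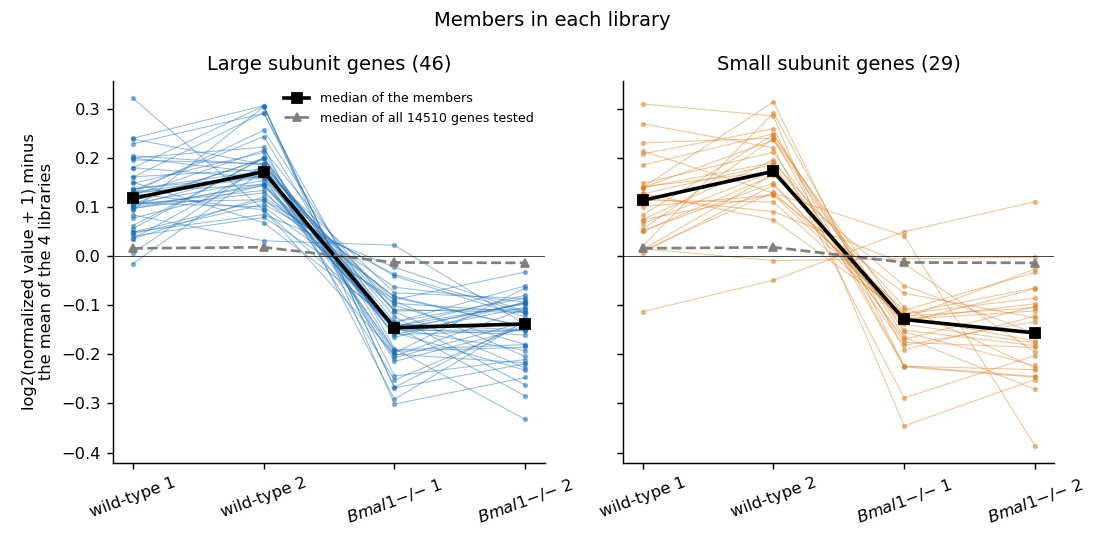
The plot gives, for each large subunit (left) and small subunit (right) member tested, log2(normalized value + 1) in each library minus the mean of the 4 libraries, with thin lines joining 1 gene, black squares for the median of the members and grey triangles for the median of all genes tested. The members' medians were 0.12 and 0.17 (large) and 0.11 and 0.17 (small) in wild-type libraries and −0.15 and −0.14 (large) and −0.13 and −0.16 (small) in Bmal1-/- libraries, while the median of all genes stayed within 0.02 of 0.

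In the large subunit the lowest log2 fold change was that of Mrpl52 (chromosome 14, 55045746 to 55048587 in mm9), a protein without a bacterial counterpart. Its normalized values were 957 and 1002 in wild-type and 657 and 682 in Bmal1-/- libraries (log2 fold change −0.55, SE 0.06, adjusted p = 3.19e-07). Mrpl12, which forms the flexible stalk that recruits translation factors and also binds the mitochondrial RNA polymerase, was at 1108 and 1157 and fell to 829 and 750.5 (log2 fold change −0.52, SE 0.06, adjusted p = 7.34e-07). For Mrpl11, at the base of the stalk, the values were 1339 and 1467 against 1011 and 1035 (log2 fold change −0.45, SE 0.06, adjusted p = 1.46e-06). These 3 genes had clearly separate groups of libraries. Mrpl10, the protein that anchors the stalk, did not pass the test, at 1415 and 1364 against 1356 and 1212 (log2 fold change −0.12, SE 0.06, adjusted p = 0.10). The stalk genes thus held both the second lowest and the highest log2 fold change of the large subunit.

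Mrpl42, a mitochondria-specific protein and the large subunit gene with the highest level per kilobase of exon, fell from 2343 and 2557 to 1716 and 1776 (log2 fold change −0.49, SE 0.05, adjusted p = 1.16e-07). Mrpl18, the counterpart of the bacterial protein that binds 5S rRNA, fell from 1632 and 1657 to 1160.2 and 1296 (log2 fold change −0.42, SE 0.06, adjusted p = 3.10e-06). Mrpl27, whose bacterial counterpart reaches into the peptidyl transferase centre, fell from 750.1 and 641 to 522 and 516 (log2 fold change −0.42, SE 0.08, adjusted p = 1.12e-04). In each of these 3 genes both Bmal1-/- libraries were below both wild-type libraries. Mrpl30 also fell, with 1283 and 1485 in wild-type against 999 and 1097 in Bmal1-/- libraries (log2 fold change −0.40, adjusted p = 3.85e-05). Mrpl48 was at 658 and 635 against 505 and 458 (log2 fold change −0.43, adjusted p = 5.50e-05), but 1865 of its 6139 exon bases also belong to D630004N19Rik on the same strand, a gene listed at 0, so that its level is uncertain.

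The large subunit members nearest to 0 were, beside Mrpl10, Mrpl43, Mrpl24, Mrpl37, Mrpl46, Mrpl35, Mrpl2 and Mrpl39. Mrpl43 did not pass the test (928 and 953 against 848 and 882, log2 fold change −0.12, SE 0.06, adjusted p = 0.094), although its groups did not overlap. Mrpl24, the counterpart of a bacterial protein that starts subunit assembly, was at 1334 and 1367 against 1269 and 1192 and just passed (log2 fold change −0.13, SE 0.05, adjusted p = 0.043); without Bmal1-/- library 2 it was −0.09 (adjusted p = 0.33). The others had log2 fold changes of −0.15 (Mrpl37), −0.16 (Mrpl46), −0.16 (Mrpl35), −0.16 (Mrpl2) and −0.19 (Mrpl39), with adjusted p between 0.0066 and 0.038. All 5 lost the call when wild-type library 2 was left out, Mrpl35 at −0.07 and Mrpl39 at −0.10 (adjusted p = 0.40 and 0.13) and the other 3 between −0.13 and −0.11 (adjusted p 0.063 to 0.20). Mrpl24 lost it in that fit too (−0.12, adjusted p = 0.12). The SEs of all these genes were near 0.06, so that they are not ordered among themselves beyond their error.

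Mrpl53 was the 1 member below the filter. It had 0 reads in every library, and 640 of its 735 exon bases are shared on the same strand with Ccdc142, which was at 49.5 and 71.2 in wild-type and 57.3 and 58.2 in Bmal1-/- libraries. Its own mRNA can therefore not be read from these values. A count of 3 reads corresponded to a normalized value between 2.82 and 3.19.

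Per kilobase of exon, levels in the large subunit ran from Mrpl42 (3679 against 2622, mean wild-type against mean Bmal1-/- value per kilobase), Mrpl52 (2377 against 1624), Mrpl11 (1709 against 1246), Mrpl20 (1536 against 1265) and Mrpl40 (1444 against 1171) down to Mrpl1 (256 against 219.6), Mrpl33 (188 against 146), Mrpl13 (181 against 151), Mrpl23 (149 against 118) and Mrpl48 (105 against 78.4). The proteins are present in equal numbers in a ribosome, save for the stalk protein, but these mRNA levels did not match each other. Lengths are those of all annotated exons merged, and long annotated exons such as those of Mrpl33 (7473 bases) and Mrpl13 (7936 bases) lower the level per kilobase.

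In the small subunit Mrps21 (chromosome 3, 95666557 to 95675442 in mm9), the counterpart of a bacterial protein that binds near the mRNA path, had the lowest log2 fold change of all members. It was at 714 and 702 in wild-type and 453 and 483 in Bmal1-/- libraries (log2 fold change −0.60, SE 0.07, adjusted p = 5.41e-07), and the groups lay far apart relative to their spread. Mrps17, an early-binding rRNA protein in bacteria, fell from 1269 and 1227 to 861 and 914 (log2 fold change −0.49, SE 0.06, adjusted p = 5.46e-07). Mrps27, a mitochondria-specific member of the pentatricopeptide repeat family of RNA-binding proteins, fell from 1242 and 1250.3 to 905 and 892 (log2 fold change −0.47, SE 0.06, adjusted p = 5.60e-07).

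Mrps12, the protein of the decoding centre, fell from 1083 and 1122 to 802 and 791 (log2 fold change −0.47, SE 0.06, adjusted p = 1.14e-06). Mrps16, the small subunit gene with the highest level per kilobase, fell from 1380.1 and 1443 to 1082 and 1005 (log2 fold change −0.44, SE 0.06, adjusted p = 2.07e-06). Mrps33 was lower in level and had a wider error, at 309 and 348 against 239.5 and 238 (log2 fold change −0.46, SE 0.10, adjusted p = 4.59e-04). Mrps35 and Mrps5, the latter the counterpart of a bacterial protein that guards accuracy, had log2 fold changes of −0.38 and −0.36. For each of these 5 genes both Bmal1-/- libraries were lower.

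Mrps24, the counterpart of a bacterial protein at the mRNA entry channel, was the only member called higher. It was at 1087 and 1137 in wild-type and 1217 and 1270.2 in Bmal1-/- libraries (log2 fold change 0.16, SE 0.06, adjusted p = 0.019), and the groups did not overlap. The call was lost without wild-type library 1 (adjusted p = 0.082) and without Bmal1-/- library 2 (adjusted p = 0.17). Of its 1466 exon bases, 226 are shared on the same strand with Urgcp, which went from 238 and 253 down to 153 and 140.2 (log2 fold change −0.74, SE 0.11, adjusted p = 1.26e-05).

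Mrps2 was at 2916 and 2867 in wild-type and 2875 and 2881 in Bmal1-/- libraries, and it was the 1 member whose groups overlapped (log2 fold change −0.01, SE 0.04, adjusted p = 0.91). It is the counterpart of a bacterial protein that joins the small subunit late. Mrps6 was at 302 and 313 against 272 and 263 and did not pass (log2 fold change −0.20, SE 0.09, adjusted p = 0.072). It shares 696 of its 1590 exon bases on the same strand with Slc5a3, which was at 180.1 and 174 in wild-type and 245 and 263 in Bmal1-/- libraries (log2 fold change 0.52, SE 0.10, adjusted p = 3.26e-04). Reads of these overlapping exons could not be assigned to either gene from the deposited values. The remaining members near 0 were Mrps10 (−0.14), Mrps15 (−0.15), Mrps31 (−0.18) and Mrps30 (−0.20), all called lower. None of these 4 calls held in every fit that left out a library. Without wild-type library 2 the values were −0.08 for Mrps10 and Mrps15 and −0.10 for Mrps31 (adjusted p = 0.29, 0.28 and 0.14), and without Bmal1-/- library 1 they were −0.10, −0.10, −0.15 and −0.17 for Mrps10, Mrps15, Mrps31 and Mrps30 (adjusted p = 0.28, 0.29, 0.093 and 0.060).

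Mammals have 3 genes for counterparts of the bacterial protein S18, and all 3 were called lower. Mrps18c was at 1032 and 1157 against 877 and 858 (log2 fold change −0.33, SE 0.06, adjusted p = 1.51e-04). Mrps18a, whose protein sits in the large subunit in spite of its name, was at 827 and 899.7 against 698 and 731 (log2 fold change −0.27, SE 0.06, adjusted p = 0.0014). Mrps18b was at 1085 and 1045 against 915 and 935 (log2 fold change −0.20, SE 0.06, adjusted p = 0.0054). DESeq2 did not call Mrps18b (adjusted p = 0.11). Neither did limma after the correction for exon length given below (log2 fold change −0.085, adjusted p = 0.23). Without Bmal1-/- library 1 the adjusted p of Mrps18b was 0.056. Differences among the 3 were not tested. Mrps30, a further protein of the large subunit under a small subunit name, was at 1611 and 1723 against 1415 and 1484 (log2 fold change −0.20, adjusted p = 0.0032). Mrps18a and Mrps30 were then counted in the large subunit, and Mrps36, now known as a subunit of 2-oxoglutarate dehydrogenase, was left out. On that count 46 of 48 large and 23 of 26 small subunit genes were called lower (28.6% of all genes tested). The medians were −0.28 and −0.30.

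Mrps36 itself was at 298 and 360.1 against 257 and 269.9 (log2 fold change −0.31, SE 0.10, adjusted p = 0.012), and without wild-type library 2 it was −0.18 (adjusted p = 0.19). A copy named Mrps36-ps1 could share its reads, as could pseudogene copies named after Mrpl23 and Mrpl48. Mrps34 was the small subunit member with the fewest reads, at 193 and 182 against 171 and 127 (log2 fold change −0.34, SE 0.13, adjusted p = 0.037). Without Bmal1-/- library 2 its log2 fold change was −0.13 (adjusted p = 0.52) and without Bmal1-/- library 1 it was −0.56, and neither edgeR (adjusted p = 0.051) nor DESeq2 (0.27) called it. The 2 Bmal1-/- libraries of Mrps34 differed by more than the gap between the nearest libraries of the 2 groups, and 763 of its 2064 exon bases are shared on the same strand with Nme3, which is listed at 0. Neither a named pseudogene copy nor an exon shared on the same strand was found for 68 members tested. Of these, 65 were called lower and 0 higher (28.6% and 24.0% over all genes tested). Over the 50 that share no exon with another gene on either strand, 49 were lower, with a median log2 fold change of −0.30.

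Per kilobase of exon the highest small subunit levels were those of Mrps16 (2494 against 1844), Mrps31 (1141 against 1005), Mrps28 (1109.5 against 902), Mrps2 (991 against 986) and Mrps30 (1048 against 911). The lowest were Mrps34 (90.7 against 72.1), Mrps25 (152 against 121), Mrps10 (158 against 143), Mrps26 (181 against 153) and Mrps6 (194 against 168). Both ends of this order held genes with large and with small log2 fold changes.

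**Figure D2:**
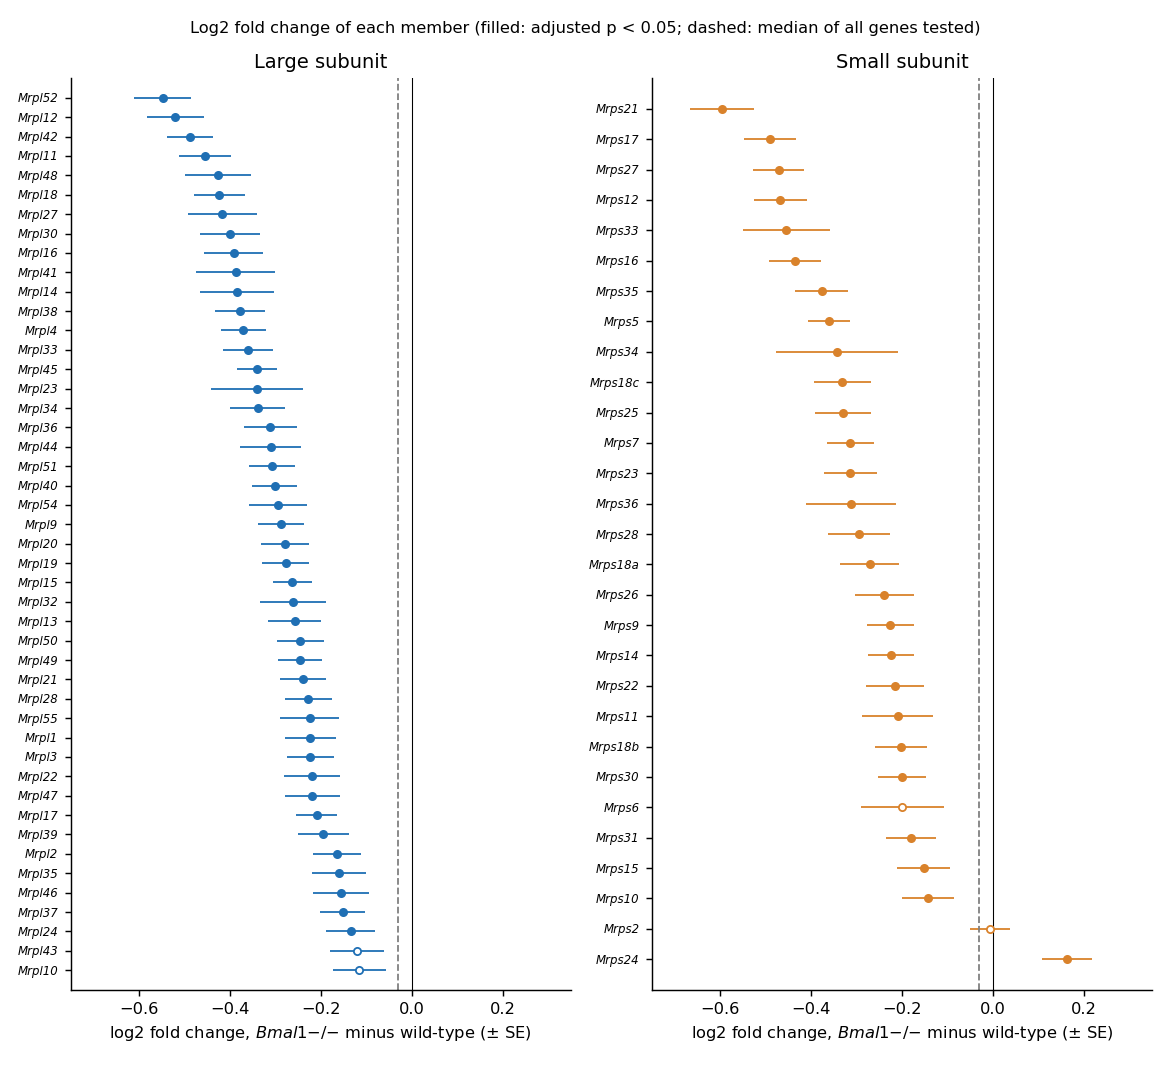
Points give the log2 fold change (Bmal1-/- minus wild-type, on log2(value + 1)) of each member tested with its SE, large subunit on the left and small subunit on the right, filled where the adjusted p was below 0.05, and the dashed line is the median of all genes tested, −0.03. The large subunit runs from −0.55 (Mrpl52) to −0.12 (Mrpl10) and the small subunit from −0.60 (Mrps21) to 0.16 (Mrps24), with 4 open points.

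Both proteins of bacterial origin and mitochondria-specific ones were among the members that fell. Of the members with a bacterial counterpart, 44 of 48 tested were called lower and 1 higher (28.6% and 24.0% over all genes tested). Their median log2 fold change was −0.27. Of the mitochondria-specific members, 26 of 27 tested were called lower and 0 higher, with a median of −0.31. The spread over genes was 0.13 (SD) in the former and 0.11 in the latter. In the small subunit alone, 15 of 18 with a bacterial counterpart and 11 of 11 without one were called lower (28.6% of all genes tested). With DESeq2 these were 11 of the 18 and 5 of the 11 (17.5% of all genes). By symbol, the 18 include Mrps18a and the 11 include Mrps30, both proteins of the large subunit. The 11 also include Mrps36, the subunit of 2-oxoglutarate dehydrogenase. A difference between the classes was not tested.

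A further 7 ribosomal proteins carry other symbols. Of these, 5 were called lower and 0 higher (28.6% and 24.0% over all genes tested), with a median log2 fold change of −0.31. Aurkaip1, of the small subunit, was at 1931 and 2002 against 1635 and 1469 (log2 fold change −0.34, adjusted p = 2.35e-05). Mrp63, of the large subunit, was at 611 and 634 against 486 and 505 (log2 fold change −0.33, adjusted p = 5.34e-04), and Chchd1, of the small subunit, was at 1204 and 1256 against 959 and 1009.9 (log2 fold change −0.32, adjusted p = 7.70e-05). Ict1, a release factor built into the large subunit, had −0.31 (adjusted p = 4.12e-04), and Dap3, a GTP-binding protein of the small subunit, had −0.21 (adjusted p = 0.0011). Gadd45gip1 (503 and 509.9 against 474 and 439, log2 fold change −0.15, adjusted p = 0.10) and Ptcd3 (3459 and 3619 against 3261 and 3377, log2 fold change −0.09, adjusted p = 0.084) did not pass.

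The 2 ribosomal RNAs of the mitochondrial genome were not called lower. mt-Rnr2, the RNA of the large subunit, rose from 3946 and 3952 to 4649 and 4933 (log2 fold change 0.28, SE 0.04, adjusted p = 1.59e-05). mt-Rnr1, the RNA of the small subunit, was at 2817 and 2940.4 against 2641 and 2806 and did not pass (log2 fold change −0.08, SE 0.05, adjusted p = 0.16). The kit selects mRNA by its poly(A) tail, so that these values count only the rRNA carried through that selection.

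Other genes of mitochondrial translation were counted by function. Over all genes tested 28.6% were called lower and 24.0% higher. The list named translation factors here held 15 genes, among them Oxa1l, Lrpprc and Slirp, which are related genes rather than translation factors proper. Of the 15, 9 (60.0%) were called lower and 0 higher (median log2 fold change −0.19), with Oxa1l (−0.34) and Slirp among the 9. The lowest called were Mrrf, which recycles ribosomes (363 and 417 against 292 and 292, log2 fold change −0.41, adjusted p = 6.32e-04), Mtrf1l, which releases finished chains (−0.40), and Slirp, listed as 1810035L17Rik, an RNA-binding partner of Lrpprc (−0.36). The called genes nearest to 0 were the elongation factors Gfm1 (−0.12) and Guf1 (−0.19) and the recycling factor Gfm2 (−0.14), and these 3 lost the call in some fits that left out a library (Guf1 at −0.12 without wild-type library 2). Of 22 ribosome assembly factors, 11 were called lower and 0 higher (median −0.17), from Ngrn (−0.32), the rRNA methyltransferase Tfb1m (−0.31) and Rnmtl1 (−0.27) to Trub2 (−0.15), Mettl17 (−0.18) and Noa1, listed as 2610024G14Rik (−0.18). Of these 11 calls 8 were lost in some fit that left out a library, those of Tfb1m, Rnmtl1, Trub2, Mettl17 (−0.10 without wild-type library 2) and Noa1 among them. With Bmal1-/- library 1 left out 5 assembly factors were called, and with library 2 left out 6.

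Of 20 mitochondrial tRNA synthetases and related enzymes, 9 were called lower and 1 higher (median log2 fold change −0.14), against 28.6% lower and 24.0% higher over all genes. Lars2, the leucyl-tRNA synthetase, was at 10426 and 7674 against 4408 and 4264 (log2 fold change −1.04, SE 0.08, adjusted p = 1.15e-09), and its 2 wild-type libraries differed widely from each other. Yars2 (−0.35) and Cars2 (−0.35) were next, Tars2 (−0.13) and Hars2 (−0.16) were lower by less, and Mars2, the methionyl-tRNA synthetase, rose (379 and 423 against 457 and 465, log2 fold change 0.20, adjusted p = 0.040). The calls of Tars2, Hars2 and Mars2 were each lost in some fits that left out a library, with −0.08 for Tars2 and 0.12 for Mars2 without wild-type library 1 and −0.10 for Hars2 without Bmal1-/- library 1 (adjusted p = 0.28, 0.26 and 0.35).

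Log2 fold changes varied with gene length and level over all genes, and the members are short and well expressed. Over the 14510 genes tested, log2 fold change and exon length had a Spearman rho of 0.22, and over the 75 members 0.28. These genes share the same 4 libraries and are not independent replicates. The median exon length of the members was 1700 bases, against 3649 for all protein-coding genes tested. Over all genes the median log2 fold change was −0.10 for exon lengths under 1000 bases, −0.16 from 1000 to 2000, −0.08 from 2000 to 4000, 0.03 from 4000 to 8000 and 0.20 from 8000 up. In the same ranges up to 8000 bases the members had medians of −0.39, −0.30, −0.23 and −0.27, below all genes in each. With level, the median over all genes went from 0.17 for mean values under 100 to −0.08 from 2000 up (Spearman rho −0.19). Among the members this relation had the other sign (rho 0.28), with medians of −0.34 for mean values of 100 to 500, −0.31 to 1000, −0.25 to 2000 and −0.26 from 2000 up.

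Set beside protein-coding genes of like length and level, the members lay closer to the rest. The 1015 protein-coding genes outside the family with under 2000 exon bases and a mean value of at least 500 had a median log2 fold change of −0.25, and 77.2% of them were called lower. The 36 members in that class had a median of −0.31, with 33 called lower. The proteins of the cytosolic ribosome, also short and highly expressed, fell as well: 79 of 84 were called lower and 2 higher, with a median of −0.24. The lowest called among them were Rpl35 (−0.47), Rpl36 (−0.41) and Rps27 (−0.39), and the highest were the paralogs Rpl10l (1107 and 1051 against 2163 and 2283, log2 fold change 1.04) and Rpl39l (0.99), followed by Rpl12 (−0.13, adjusted p = 0.052 without Bmal1-/- library 2), whose reads may be shared with near-identical copies.

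When each library's log2 values were corrected for a smooth trend over exon length, a step chosen after the data had been seen, 29 of 46 large and 16 of 29 small subunit genes were called lower, against 24.3% of all genes. The medians were then −0.18 and −0.16, and Mrps24 remained the 1 member called higher. With a correction for transcript GC content and exon length together, 25 large and 17 small subunit genes were called lower (26.3% of all genes) and 1 of each higher (Mrpl2 and Mrps24), with medians of −0.16 and −0.16. The part of length in the fall of the members, apart from these corrections, was not tested.

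**Figure D3:**
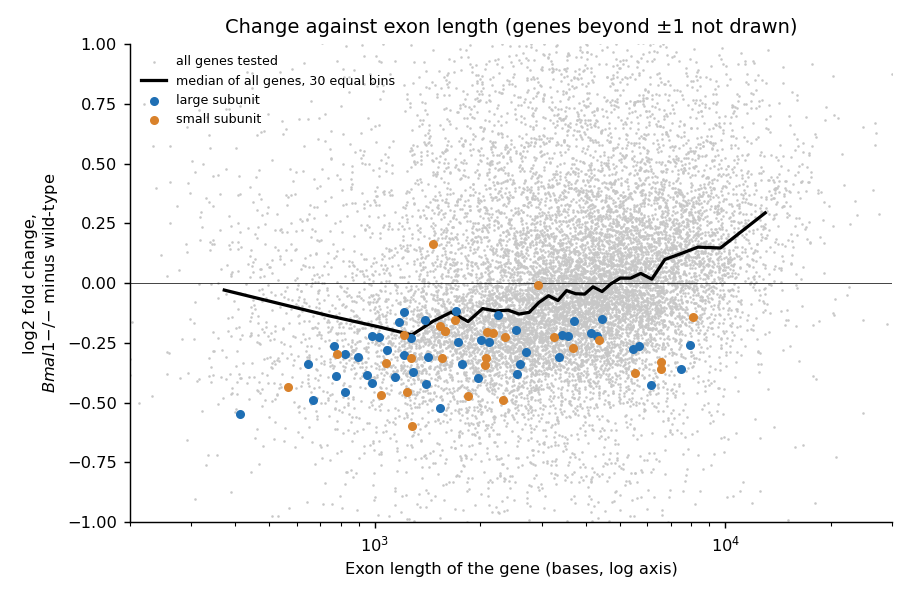
Each grey point is 1 of the genes tested, with its merged exon length in bases on a log axis and its log2 fold change (Bmal1-/- minus wild-type), the black line joins the medians of equal bins of genes ordered by length, and members are blue (large subunit) or orange (small subunit). The line climbs from below 0 for short genes to above 0 for long ones, and nearly all members lie below it.

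Many members start head to head with another gene. A protein-coding neighbour on the opposite strand whose start lay within 1000 bases was found for 28 of the 76 members (36.8%), against 15.2% of all protein-coding genes tested. Mrpl46 and Mrps11 are such a pair within the family, with log2 fold changes of −0.16 and −0.21. The 26 neighbours that are not members were lower in 10 cases and higher in 1 (28.6% and 24.0% over all genes), with a median of −0.13, and the members in these pairs had a median of −0.31. Among the neighbours called lower, 4 had log2 fold changes of −0.28 or less, a limit set after their values were seen: Mrpl30 with Mitd1 (−0.34), Mrpl49 with Fau (−0.31), a gene whose product includes a cytosolic ribosomal protein, Mrpl32 with the proteasome gene Psma2 (−0.29) and Mrpl18 with the chaperonin gene Tcp1 (−0.28). Wdfy1, whose start lies 125 bases from that of Mrpl44, rose (log2 fold change 0.29, adjusted p = 2.26e-04), while Mrpl44 fell, with 743 and 788 against 597 and 638 (log2 fold change −0.31, adjusted p = 5.94e-04).

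**Figure D4:**
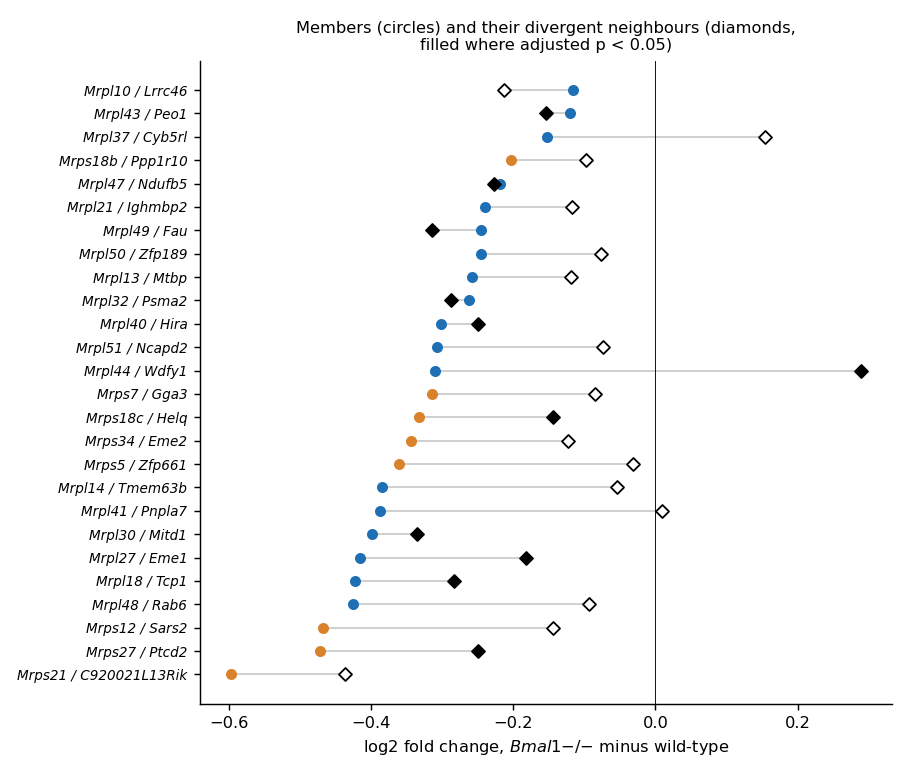
Each row is a member (circle, blue for large and orange for small subunit) and its head-to-head neighbour outside the family (diamond, filled where the adjusted p was below 0.05), placed by log2 fold change (Bmal1-/- minus wild-type). The members lie between −0.60 and −0.12, while the neighbours spread from −0.44 to 0.29. The −0.44 is that of C920021L13Rik, a gene near the filter (values of 8.45 to 15.8, SE 0.39) that was not called. The lowest neighbour called was Mitd1 at −0.34.

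The direction of both subunits was the same under every scaling tried, by limma and by the count tests. Scaled to equal totals, the medians were −0.22 and −0.24, and 38 large and 21 small subunit genes were called lower. That scaling turned the calls over all genes from 4151 lower and 3488 higher into 3194 lower and 4200 higher. With edgeR on the whole reads recovered, 42 large and 23 small subunit genes were called lower (26.6% of all genes), and with DESeq2 32 and 16 (17.5% of all genes). Leaving out each library in turn, the medians ranged from −0.31 to −0.26 for the large and from −0.33 to −0.23 for the small subunit. Over all genes tested the median stayed between −0.036 and −0.029 in these fits. Many of the single calls for lower members did not hold in every such fit.

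**Figure D5:**
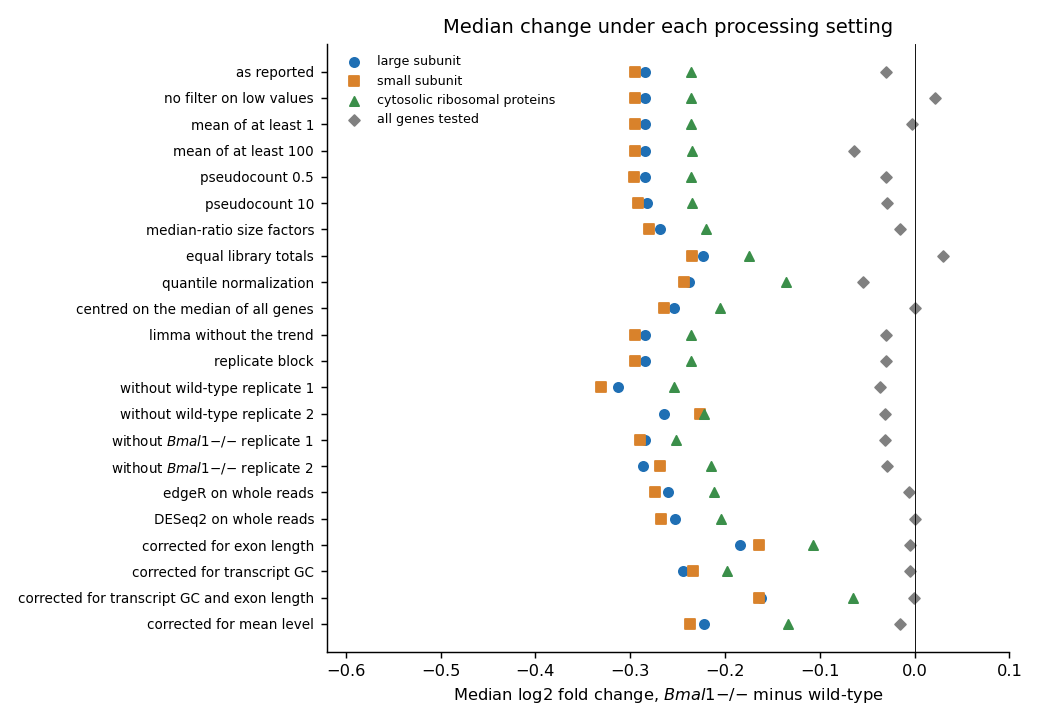
Median log2 fold change (Bmal1-/- minus wild-type) of the large subunit (blue), the small subunit (orange), the cytosolic ribosomal proteins (green) and all genes tested (grey) under each processing setting, from the reported one at the top. The medians of both subunits stay between −0.33 and −0.16, and those of all genes between −0.06 and 0.03.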

How the data were processed

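mRNA-seq libraries of 2 wild-type and 2 Bmal1-/- mESC cultures were compared. Per the labels and the study's methods, reads from a stranded mRNA kit were aligned to mm9 with STAR 2.5.2b after bcl2fastq 2.18.0.12 and cutadapt 1.9.1. The counter, its annotation and whether it used strand are not given in the sources used here. The deposited values are a signal that the authors made by dividing each gene's read count by 1 factor per library (TMM from NOISeq), and they are neither log2 values nor corrected for length. Whole reads were recovered for 100% of the values (within 0.01 of a read): 21737170 and 21504265 reads on genes for wild-type and 23329034 and 23021702 for Bmal1-/-. Replicates differed by more than counting error (chi-square per degree of freedom 3.02 for wild-type and 1.95 for Bmal1-/-). limma weighed each change against the spread between 2 cultures per group, counting error included. Each gene's variance was first drawn toward a trend over all genes tested, a prior with 18.1 degrees of freedom. Its p-values therefore rest mostly on spread shared over genes.

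Identifiers were matched to GENCODE vM1 on NCBIM37 (all 37310). limma 3.58.1 in R 4.3.3 (lmFit, eBayes with trend) was fitted to log2(value + 1) for the 14510 genes with a mean of at least 10, 2 libraries against 2 with no covariate, and p-values were adjusted over all of them. The study's methods name DESeq2, used here beside edgeR on the recovered reads. Fold changes on this scale understate the change of low genes. The tests were first run on simulated data in which 100 genes changed by 0.3 and 100 by 1 on the log2 scale. limma recovered 47 and 89 of these, edgeR 48 and 89, and DESeq2 34 and 76. Far fewer genes changed there than were called in these data. Genes named in each subunit are the 8 highest and 8 lowest log2 fold changes, the 5 highest and lowest levels per kilobase, members below the filter, the Mrps18 genes, Mrps30 and Mrps36, and in other lists the 3 highest and lowest called. Genes whose values appear outside this rule were chosen after their values were seen. The members, the lists and the rule were chosen with earlier results of these data known. Alternatives were other filters, pseudocounts, scalings and tests, the replicate number as a block and each library left out, and, added after seeing the data, corrections for exon length, GC content and level (lowess, span 0.3). Tables were read with pandas 2.3.3, numpy 2.4.6 and scipy 1.17.1 and drawn with matplotlib 3.10.9, under Python 3.11.15.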

Additional observations from a re-analysis of the deposited data

How the results depend on the processing

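Each group is 2 libraries of 1 line, so that p-values speak of these cultures, and replicates differed by more than counting error (chi-square per degree of freedom 3.02 for wild-type and 1.95 for Bmal1-/-). Cultures with the same number did not deviate together (correlation −0.02), so no pairing was used. With the replicate block the counts over all genes were 4332 lower and 3617 higher and those of the members were 44 and 26. The medians kept their sign under every setting. Of 966 values of 46 single genes under alternatives, 782 kept direction and side of the threshold, 161 lost the call, 3 gained it and 20 turned direction. The cause of these shifts was not tested except where fewer samples or a larger fold threshold set them.

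Under a 2-fold threshold 211 genes were lower and 835 higher, with 0 members called in either direction. With no filter on low values the small subunit had 17 lower and 0 higher, against 12.4% lower and 11.5% higher over all genes. In that fit 3 assembly factors and 6 synthetases were called. With a mean of at least 1, 6 synthetases were called. limma without the trend called 2515 genes lower, 14 small subunit genes lower and 0 higher, 1 assembly factor, 6 synthetases and 40 cytosolic ribosomal proteins. DESeq2 called 2536 genes lower, 16 small subunit genes lower, 5 translation factors, 2 assembly factors and 6 synthetases. Without members that have a pseudogene copy or share exons on the same strand, 41 large and 24 small subunit genes were lower and 0 higher (28.6% and 24.0% over all genes tested).

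Medians are given in the order large subunit, small subunit, other symbols, translation factors, assembly factors, synthetases and cytosolic ribosomal proteins. With equal library totals they were −0.22, −0.24, −0.25, −0.13, −0.11, −0.079 and −0.18. With quantile normalization they were −0.24, −0.24, −0.28, −0.14, −0.15, −0.10 and −0.14. Centred on the median of all genes they were −0.25, −0.26, −0.28, −0.16, −0.14, −0.11 and −0.20. With DESeq2 they were −0.25, −0.27, −0.28, −0.16, −0.14, −0.11 and −0.20. edgeR gave −0.28 for other symbols and −0.14 for assembly factors. Corrected for exon length they were −0.18, −0.16, −0.21, −0.17, −0.13, −0.14 and −0.11. Corrected for transcript GC they were −0.24, −0.23, −0.25, −0.22, −0.13, −0.12 and −0.20. With GC and exon length they were −0.16, −0.16, −0.14, −0.18, −0.13, −0.13 and −0.065. Corrected for mean level they were −0.22, −0.24, −0.25, −0.13, −0.13, −0.076 and −0.13. Assembly factors called numbered 6 with equal totals and 7 with quantile normalization, centring and the corrections for length, GC and level. Corrected for exon length, 29 large and 16 small subunit genes were lower and 50 cytosolic ribosomal proteins called. With GC and exon length the counts were 25, 17 and 40, with 1 large subunit gene (Mrpl2) called higher.

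Mrps2 turned positive, by 0.053 with equal totals, 0.0065 with quantile normalization, 0.024 when centred, 0.0083 with median-ratio factors, 0.017 with edgeR, 0.024 with DESeq2, 0.074 corrected for length, 0.000709 for GC, 0.056 for both and 0.049 for level. Over the fits without 1 library it ranged from −0.019 to 0.0053. Corrected for exon length, Mrpl10 (0.022), Mrpl2 (0.0097), Mrpl43 (0.052) and Mrpl46 (0.0048) turned positive, and with GC and exon length Mrpl10 (0.049), Mrpl2 (0.11), Mrpl43 (0.11), Mrpl46 (0.038) and Mrps15 (0.034) did.

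Leaving out each library in turn, the medians ranged from −0.31 to −0.26 for the large subunit, −0.33 to −0.23 for the small subunit, −0.31 to −0.27 for other symbols, −0.25 to −0.12 for translation factors, −0.18 to −0.14 for assembly factors and −0.16 to −0.11 for synthetases. Small subunit genes called higher ranged from 0 to 1 and assembly factors called from 5 to 10. A group left with 1 library was taken to vary like the other.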
